A study of Arabidopsis thaliana with 8 samples.

Results

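The cold response of the sfr3 mutant of Arabidopsis thaliana was measured on Affymetrix ATH1 arrays as the difference between the 2 arrays of cold-treated sfr3 plants and the 2 arrays of warm-grown sfr3 plants, 4 of the 8 arrays of the study. Ethyl methanesulfonate mutagenesis of Col-0 gave the sfr3 line. The other 4 arrays hold wild-type Col-0, 2 in the cold and 2 warm, and are used here to estimate the spread and for the comparison with wild type. Per the labels, seeds spent 48 h at 4 °C, and plants then grew to stage 1.14 over 38 days at 20 °C (70% humidity, days of 8 h light and 16 h dark). How cold the treatment was and how long it lasted is not given in the labels used here. Those labels name aerial parts as the sfr3 tissue and the entire rosette as the wild-type tissue, so genotype and collected material cannot be told apart in any comparison with wild type. Cold and warm sfr3 plants share both the mutation and the tissue. The labels do not say that the 2 arrays of a group came from separate cultures, so the p-values measure only how these arrays differ, and that spread may be technical.

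Plants that meet low, non-freezing temperatures acclimate and become able to survive frost. In Arabidopsis the CBF transcription factors switch on COR genes, whose products protect membranes and proteins, while soluble sugars accumulate, growth slows, and the clock and light signalling are reset. The sfr mutants were isolated for sensitivity to freezing after such acclimation. The gene affected in sfr3 is ACC1, whose product, a cytosolic acetyl-CoA carboxylase, makes malonyl-CoA for the very-long-chain fatty acids of the cuticle, and for flavonoids. ACC1 and its neighbour ACC2 were not paired with a probe set in the annotation used and are not analysed here.

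Of 13648 probe sets tested, the 60% with the highest mean signal, 4261 (31.2%) were called at an adjusted p under 0.05 by limma, 2028 (14.9%) higher and 2233 (16.4%) lower in the cold. On all 4261 of them both cold arrays lay outside the range of the warm arrays on the same side, as they did on 8686 (63.6%) of all probe sets tested. Statements below that the groups of a called gene do not overlap therefore describe the arrays and are no support beyond the call. Both cold arrays changed at least 2-fold from the warm mean on 2186 of the called probe sets. One cold array stood apart: replicate 1 had a median signal of 52.4 against 36.6 to 39.0 on the other 7 arrays, dark control probe sets reaching 35.4 against 6.37 to 11.3, and hybridisation controls 7.64 times the median of the others. Without warm sfr3 replicate 1 or 2 there were 2027 and 2180 calls, and without cold replicate 2 there were 7981. The cold replicates differed by a median of 0.55 on the log2 scale, against 0.23 between the warm sfr3 replicates. Replicate 1 read higher than replicate 2 on the dimmest of 3 equal parts of the probe sets (median log2 difference 0.37) and lower on the brightest part (-0.23). On probe sets called higher and lower together, 47.6% of calls were higher, and 30.9% were when each array was centred on its median. Leaving out 1 cold array leaves the change on the other, and the spread then comes from the other groups alone. Without replicate 1, 3801 of the 4261 calls were also made. With array weights, which count each group of arrays by how little its replicates differ and lowered both cold sfr3 arrays, 2215 were, and in a fit of the 4 sfr3 arrays alone 1864 were. The higher background of replicate 1 was not tested as a source of any single change, and each gene is therefore given on both cold arrays. Among the 7267 genes tested by name, 1053 rose and 1081 fell. On 1204 of these the cold arrays lay within 0.5 log2 units of each other, and on 367 they differed at least 2-fold. Because RNA was taken from whole aerial parts, fewer cells of a type and less RNA per cell cannot be told apart in any fall reported here.

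**Figure D1:**
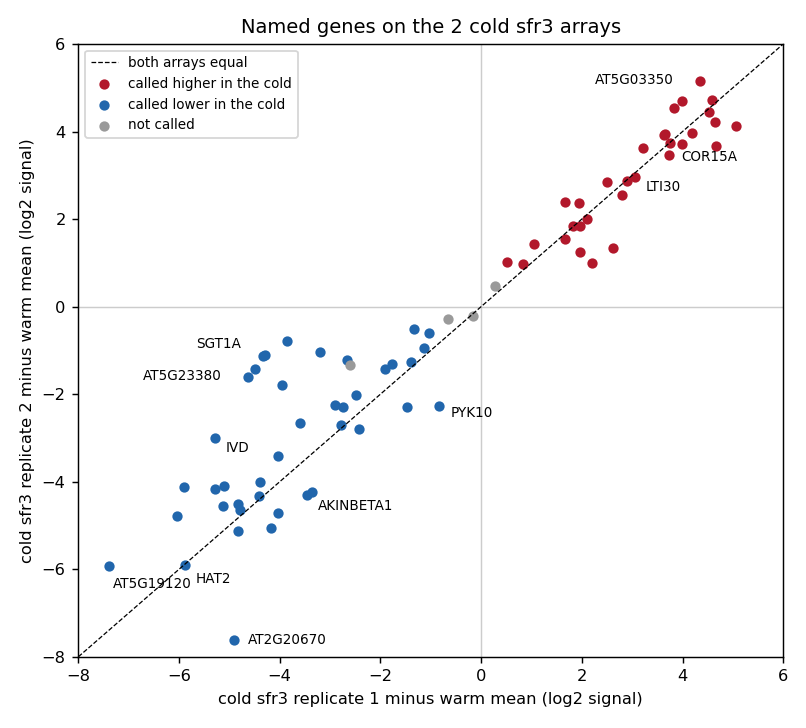
Change of the 76 named genes on each cold sfr3 array from the mean of the 2 warm sfr3 arrays (log2 of MAS5 signal, replicate 1 on the horizontal axis and replicate 2 on the vertical axis). COR15A and HAT2 lie on the dashed line of equal change, whereas SGT1A and AT5G23380 fell much further on replicate 1.

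The 4 called COR effector genes of 7 tested rose evenly on both cold arrays. In each pair of signals given here, replicate 1 comes before replicate 2. COR15A, a chloroplast stroma protein that stabilises membranes during freezing, gave 10605 and 10507 in cold sfr3 plants, against 801 and 766 in warm ones (log2 3.75, SE 0.27, adjusted p = 3.31e-05). Its paralog COR15B gave 3902 and 3864 in the cold, against 475 and 580.3 warm (log2 2.88, adjusted p = 9.97e-05). For both genes the cold replicates were nearly equal and far above the warm ones. LTI30, a membrane-binding dehydrin, stood at 6715 and 6290.4 in the cold, against 839 and 769 warm (log2 3.01, SE 0.18, adjusted p = 1.42e-05). COR27, a cold-induced protein that feeds into the clock, stood at 302 and 252, against 42.9 and 40.03 (log2 2.67, adjusted p = 7.61e-05). None of the 4 pairs of groups overlapped. The list of COR effector genes had 7 tested members, of which 4 rose, 0 fell and 3 did not pass. Over all probe sets tested 14.9% rose and 16.4% fell. The median log2 difference of the list was 2.67 against 0.06 over all probe sets tested.

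The 3 members that did not pass differed in how the cold arrays read. COR47, a dehydrin, was high in every sfr3 sample, with 1517 and 2914 in the cold, against 2318 and 1968 warm, and the cold replicates fell on either side of the warm ones (log2 -0.02, adjusted p = 0.961). LEA4-5 was low, with 5.76 and 52.1 in the cold, against 33.7 and 40.3 warm, and its replicate 1 value lay under the dark control level of that array. AT4G33980 read 74.3 and 51.4 in the cold, against 35.5 and 26.8 warm (log2 0.95, adjusted p = 0.0900), with both cold arrays above both warm ones. From the list of regulators, STZ, a zinc finger repressor also known as ZAT10, was the single tested member and fell, at 108 and 118 in the cold, against 261 and 315 warm (log2 -1.33, adjusted p = 0.00443). The CBF genes themselves were not among the named and tested probe sets.

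Some genes outside these lists rose by a similar amount and were named after their values were seen. AT4G30650 reached 5182 and 3895 in the cold, against 508 and 450.2 warm (log2 3.23, adjusted p = 5.03e-05). LCR69, a small cysteine-rich defensin-like protein, reached 4489 and 5406 against 953 and 679.5 (log2 2.61, adjusted p = 1.17e-04). AT1G67360 read 968 and 922 in the cold, against 99.2 and 102 warm (log2 3.20, adjusted p = 1.15e-05). In each case both cold arrays were several times the warm level and close to each other.

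Genes of light signalling and the clock moved in both directions. GI, the clock protein GIGANTEA, was the single tested clock gene and rose, with 539.9 and 602 in the cold, against 289.9 and 318 warm (log2 0.90, adjusted p = 0.00970). AT3G52740, listed among the growth and shade genes, was not above background in warm sfr3 plants (1.11 and 6.74) and gave 177 and 91.5 in the cold, at least 14.7-fold higher (adjusted p = 8.00e-04). Bounds of this kind set the dim group at the dark control level of its arrays and take the signals of the other group as they are. For rises they therefore do not allow for the dark level of 35.4 on cold replicate 1. AT3G44450, from the same list, gave 483 and 522 in the cold, against 76.6 and 76.5 warm (log2 2.68, adjusted p = 2.78e-05). HYH, the homolog of the light-signalling factor HY5, gave 69.9 and 93.7, against 2.88 and 9.82 (log2 3.42, adjusted p = 0.00769). Both cold arrays were higher for all of these. Among genes named after their values were seen, AFR, an F-box protein of phytochrome A signalling, rose (log2 1.99, adjusted p = 0.00271), whereas CCL, a clock-controlled gene with an unstable transcript, fell to 405 and 926 in the cold, against 5173 and 5709.6 warm (log2 -3.14, adjusted p = 2.53e-04), with a change of -3.74 on replicate 1 and -2.55 on replicate 2. FHL, which carries phytochrome A into the nucleus, fell to 27.6 and 15.2 against 54.0 and 52.5 (log2 -1.29, adjusted p = 0.0411). The calls of GI and HYH were lost with array weights and without warm replicate 1, and GI also on centring each array on its median, while FHL was called in 7 of 17 alternative settings.

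Enzymes of starch and sucrose metabolism were higher where they were called. PWD, a glucan phosphorylating enzyme that opens starch granules to breakdown, stood at 742 and 1000.4 in the cold, against 208 and 176 warm (log2 2.16, SE 0.20, adjusted p = 1.18e-04). ATSPS4F, a sucrose phosphate synthase, stood at 144 and 186 against 55.5 and 83.6 (log2 1.24, adjusted p = 0.00694). APL3, a large subunit of the starch-building ADP-glucose pyrophosphorylase that was named after its values were seen, stood at 135 and 197 against 27.98 and 41.2 (log2 2.19, adjusted p = 7.30e-04). The groups did not overlap for any of the 3. DPE1, a plastid disproportionating enzyme, did not pass (log2 0.05, adjusted p = 0.886). The starch, sugar and proline list had 6 tested members, 3 higher (PWD, ATSPS4F and the sucrose exporter SWEET11) and 2 lower (the carriers SWEET17 and TMT1), and a median of 0.41. Over all probe sets 14.9% were higher and 16.4% lower. Of the 5 calls on this list, 2 to 5 were made on leaving out 1 sfr3 array. The call of ATSPS4F was lost without warm replicate 1 and on median centring.

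Sugar carriers split by gene. SWEET13, a plasma membrane sucrose exporter, gave 290.1 and 285 in cold sfr3 plants, against 30.1 and 31.2 in warm ones (log2 3.14, adjusted p = 5.56e-05). TMT2, which loads sugar into the vacuole, gave 315 and 288, against 77.6 and 65.2 (log2 2.05, adjusted p = 1.08e-04). SWEET1, a glucose carrier, gave 573 and 381 against 149 and 140.5 (log2 1.67, adjusted p = 9.80e-04). For these 3 genes both cold arrays were clearly higher. In contrast SWEET17, a vacuolar fructose carrier, fell to 62.3 and 34.3 in the cold, against 151 and 207 warm (log2 -1.88, adjusted p = 0.00686), with the lower value on replicate 2. SWEET2, a vacuolar glucose carrier, fell to 51.3 and 58.8 against 115 and 136 (log2 -1.16, adjusted p = 0.00540). TMT1, a second vacuolar loader, fell to 237 and 319.6 against 462 and 519.9 (log2 -0.83, adjusted p = 0.0183). TMT1 and TMT2 moved in opposite directions. Of 10 tested members of these families, counted after their values were seen, 4 rose and 3 fell, against 14.9% and 16.4% of all probe sets, and the median was 1.42 on replicate 1 and 0.30 on replicate 2. SWEET16 was the member on which the cold arrays disagreed most, with 199 and 26.2 in the cold, against 52.8 and 58.8 warm (log2 0.38, adjusted p = 0.720). Without warm replicate 2 the calls of SWEET17, SWEET2, TMT1 and of the small rise of SWEET11 (log2 0.78, adjusted p = 0.0229) were lost, which leaves 3 of 7 calls in these families. The calls of TMT1 and SWEET11 were also lost without warm replicate 1 and with array weights.

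The 5 tested genes listed as switched on when sugar runs short fell together. AKINBETA1, a regulatory subunit of the energy-sensing kinase SnRK1, dropped to 105 and 56.7 in the cold, against 1109 and 1231 warm (log2 -3.88, SE 0.27, adjusted p = 2.39e-05). All 5 tested members of the sugar starvation and SnRK1 list, which holds 23 genes, fell, against 16.4% of all probe sets tested. Their median log2 difference was -3.88, and all 5 were also called with array weights. The other 4 act in the mitochondrial breakdown of leucine. MCCA, the biotin subunit of methylcrotonyl-CoA carboxylase, dropped to 56.9 and 60.7 in the cold, against 1176 and 1336 warm (log2 -4.36, SE 0.22, adjusted p = 5.57e-06). MCCB, its partner subunit, dropped to 60.8 and 103 against 451 and 292 (log2 -2.16, adjusted p = 8.21e-04). Both subunits were low on both cold arrays, MCCA by almost the same amount. IVD, the isovaleryl-CoA dehydrogenase one step earlier, read 9.46 and 54.5 in the cold, against 423 and 483 warm (log2 -4.14, SE 0.59, adjusted p = 0.00103). Its replicate 1 value lay below the dark control level of that array, and the change was -5.29 on replicate 1 and -3.002 on replicate 2. ETFQO, which passes electrons from these dehydrogenases to the respiratory chain, dropped to 40.5 and 56.6 against 234 and 241 (log2 -2.26, adjusted p = 3.04e-04).

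The fall extended to further steps of amino acid breakdown. ALDH6B2, a methylmalonate-semialdehyde dehydrogenase of valine breakdown, dropped to 285 and 364 in the cold, against 1463 and 1473 warm (log2 -2.18, adjusted p = 8.38e-05). MGL, methionine gamma-lyase, dropped to 79.7 and 51.6 against 784 and 526 (log2 -3.28, adjusted p = 1.87e-04). No cold value of either gene came near a warm one. ETFBETA, an electron transfer flavoprotein subunit, fell less, to 104 and 89.1 against 179 and 215 (log2 -1.01, adjusted p = 0.00989). AT2G26800, listed with the same pathway, read 146 and 116 in the cold, against 170.4 and 187 warm and did not pass (log2 -0.45, adjusted p = 0.140). This list of branched-chain amino acid and methionine breakdown was drawn up after the values were seen and shares 4 members with the starvation list. Of its 8 tested genes 7 fell, against 16.4% of all probe sets, and both cold arrays were lower for all 8. The call of ETFBETA was lost with array weights and without warm replicate 2.

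A few single genes were chosen after their values were seen because they fell, and stand for no group. SDP1, the triacylglycerol lipase that mobilises oil, fell to 50.2 and 52.8 in the cold, against 302 and 335 warm (log2 -2.58, adjusted p = 6.71e-05). ALN, allantoinase of purine breakdown, fell to 30.4 and 30.8 against 113 and 131 (log2 -1.92, adjusted p = 8.57e-04). DELTA-OAT, ornithine aminotransferase of arginine breakdown, fell to 27.2 and 78.7 against 186 and 164 (log2 -1.86, adjusted p = 0.01002), with the lower cold value on replicate 1. For SDP1 and ALN the cold replicates were nearly equal, and the replicate 1 values of ALN and DELTA-OAT lay under the dark control level of that array. ATL8, a ubiquitin ligase gene, fell to 52.3 and 37.5 in the cold, against 406 and 368 warm (log2 -3.07, adjusted p = 2.53e-05). The call of DELTA-OAT was lost on leaving out either warm array, and its change without cold replicate 1 was -1.13.

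**Figure D2:**
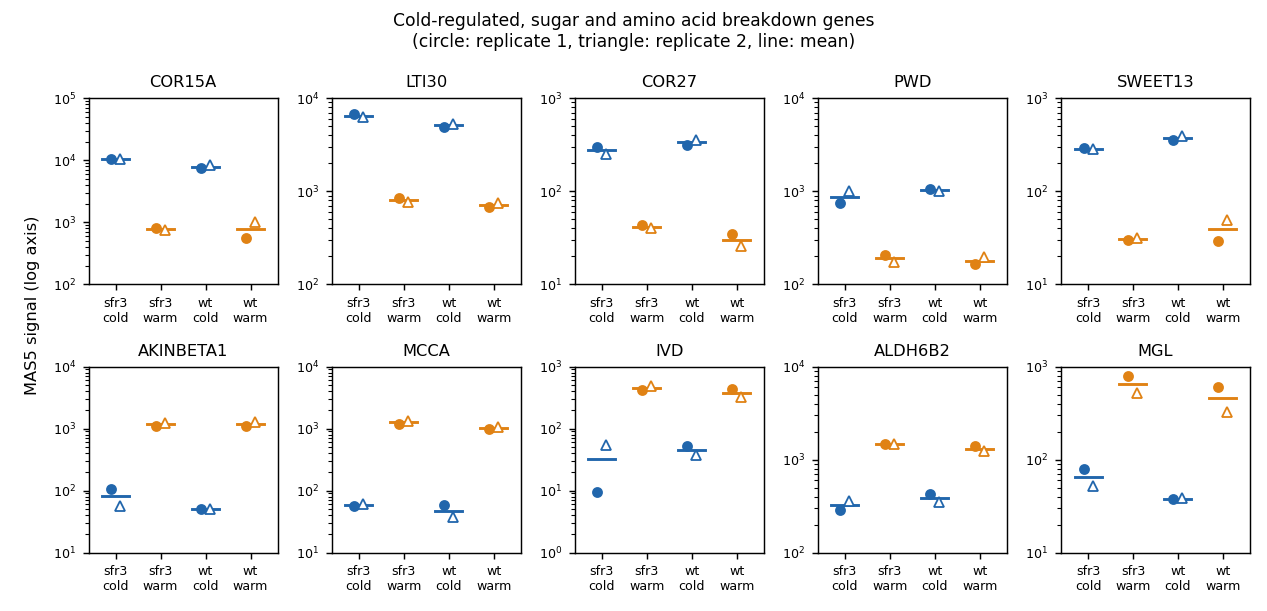
MAS5 signal (log axis) of 10 genes on each of the 8 arrays, with groups on the horizontal axis, circles for replicate 1, triangles for replicate 2 and lines for the mean of 2. The 5 upper genes were higher in cold sfr3 plants and the 5 lower genes lower, without overlap, and IVD is the gene on which the cold sfr3 replicates stand furthest apart.

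Of 12 tested genes of autophagy 8 fell, most of them in the ATG8 family, whose lipid-linked proteins build the autophagosome. ATG8E gave 9.56 and 38.1 in cold sfr3 plants, against 561 and 873 in warm ones (log2 -5.01, SE 0.49, adjusted p = 1.46e-04). It changed by -5.90 on replicate 1, where the value lay under the dark control level, and -4.12 on replicate 2. ATG8H, a dimmer member, gave 4.71 and 28.4, against 94.99 and 115 (log2 -2.88, adjusted p = 0.00696). APG8A gave 81.6 and 115, against 290.3 and 338 (log2 -1.67, adjusted p = 9.22e-04). ATG8F gave 446 and 614, against 1430.0 and 1645 (log2 -1.55, adjusted p = 8.60e-04). All 4 were lower on both cold arrays, and replicate 1 was the lower one each time. ATG8H changed by -3.95 on replicate 1, under the dark control level, and by -1.80 on replicate 2, and its call was lost without warm replicate 2. ATG8C (log2 -1.53, adjusted p = 0.00193) and APG8H (-1.36, adjusted p = 8.15e-04) fell too, APG8H with the nearly equal cold values of 377 and 373. ATG8B (log2 -0.85, adjusted p = 0.0479) and ATG3, the enzyme that conjugates ATG8 (-0.62, adjusted p = 0.0332), passed narrowly, and their calls were lost with array weights and on leaving out either warm array. The 4 members that did not pass were ATG8D (log2 0.32, adjusted p = 0.258), ATG8G (-0.40, adjusted p = 0.252), AT3G59950 (-0.30, adjusted p = 0.390) and AT3G61960 (-0.61, adjusted p = 0.165). No autophagy gene rose, the median was -1.10, 6 were also called with array weights, and 5 to 8 were on leaving out 1 sfr3 array (16.4% of all probe sets tested fell). RAPTOR1, a subunit of the growth kinase TOR, was lower as well, at 47.1 and 82.2 in the cold, against 136 and 142 warm (log2 -1.13, adjusted p = 0.0131). It was named after its values were seen, and its call was lost on leaving out either warm array.

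The ESCRT complexes, which sort membrane proteins into the vacuole, were counted after their values were seen. Of 11 tested members 6 fell (16.4% of all probe sets did), none rose, and the median was -0.78. VPS46.2 read 217 and 234 in the cold, against 518 and 486 warm (log2 -1.15, adjusted p = 0.00125). ELC, which recognises ubiquitinated cargo, read 63.1 and 92.9 against 181 and 181 (log2 -1.21, adjusted p = 0.00473). Both genes were well separated between the groups. VPS60.1 had the largest fitted fall (-2.85, adjusted p = 0.0183), but its change was -4.24 on replicate 1, below the dark control level, and -1.46 on replicate 2. Its call was lost on leaving out either warm array, and 3 of the 6 calls were also made with array weights. On leaving out 1 sfr3 array 3 to 7 were made.

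Auxin and shade response genes gave some of the largest falls in the data. HAT2, an auxin-inducible homeodomain factor of shade growth, was not above background in cold sfr3 plants, at 6.31 and 6.15 against 451 and 552 in warm ones, and was at least 27.4-fold lower (adjusted p = 3.03e-06). The 2 cold values were almost equal. IAA29, an auxin response repressor, read 10.3 and 13.4 in the cold, against 359 and 349.7 warm (log2 -4.68, SE 0.28, adjusted p = 1.45e-05). GH3.3, which links auxin to amino acids, read 37.3 and 19.4 against 463 and 354 (log2 -3.80, adjusted p = 0.00107). WES1, another of the GH3 enzymes, read 173 and 46.4 against 741 and 610.5 (log2 -2.87, adjusted p = 0.00214). Every cold value of these genes was far below every warm one, with the replicate 1 value of IAA29 under the dark control level of that array. For WES1 replicate 1 was the higher cold array, and without it the change was -3.80. In the list of auxin, shade and growth genes 5 of 7 fell and 2 rose, against 16.4% and 14.9% of all probe sets. The 2 that rose were AT3G52740 and AT3G44450. The GH3 genes, counted after the values were seen, share GH3.3 and WES1 with the auxin list. Of 4 tested GH3 genes 3 fell, against 16.4% of all probe sets. Among them was GH3.17 (log2 -1.95, adjusted p = 0.0331), whose call was lost on leaving out either warm array.

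Growth and cell wall genes moved in both directions, and EXPA8 among them is also counted in the auxin, shade and growth list. EXPA8, an expansin that loosens walls, fell to 22.2 and 44.7 in the cold, against 276 and 315 warm (log2 -3.14, adjusted p = 2.00e-04). EXLA1, an expansin-like protein, fell to 62.4 and 99.4 against 440.0 and 531 (log2 -2.58, adjusted p = 1.66e-04). EXGT-A3, a xyloglucan endotransglucosylase, fell to 199.6 and 155 against 1017 and 1162 (log2 -2.61, adjusted p = 3.59e-05). The 3 genes were called in all alternative settings run, and EXPA8 on replicate 1 lay under the dark control level of that array. ARL, which promotes cell expansion, fell to 54.8 and 59.5 in the cold, against 343 and 361 warm (log2 -2.58, adjusted p = 4.95e-05), and EXO, a brassinosteroid-induced growth gene, to 9.08 and 18.0 against 129 and 258 (log2 -3.62, adjusted p = 4.01e-04). Both were named after their values were seen, and EXO on replicate 1 lay under the dark control level. XTH32, in contrast, rose evenly to 463 and 466 in the cold, against 131 and 126 warm (log2 1.83, adjusted p = 8.38e-05). EXPB1 (log2 2.06, adjusted p = 0.0351) and EXPB5 (1.98, adjusted p = 0.0488) rose, EXPB5 with 94.6 and 37.9 in the cold, against 18.8 and 9.76 warm. EXPB5 changed by 2.61 on replicate 1 and 1.34 on replicate 2. Their calls were lost with array weights and on leaving out either warm array, that of EXPB5 also without cold replicate 1. Among expansins 3 of 11 tested members rose and 2 fell, and among xyloglucan endotransglucosylases 1 and 1 of 5, against 14.9% higher and 16.4% lower over all probe sets. Leaving out 1 sfr3 array gave 3 to 8 expansin calls in place of 5, and 2 to 4 for the other family in place of 2.

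Some cell surface signals of growth were lower. RALFL33, a secreted peptide of the RALF family, gave 87.2 and 94.7 in the cold, against 268 and 333 warm (log2 -1.69, adjusted p = 3.23e-04). RALFL32 gave 47.9 and 37.9 against 132 and 134 (log2 -1.59, adjusted p = 0.00227). FER, the receptor kinase FERONIA that binds RALF peptides, gave 192 and 326 against 684 and 642 (log2 -1.40, adjusted p = 0.00292). These genes were lower on both cold arrays and were named after their values were seen. Of 6 tested RALFL genes 3 fell, against 16.4% of all probe sets. The largest fitted fall, that of RALFL22 (log2 -2.32), was among the called genes whose cold arrays differed most. Its replicate 1 value lay under the dark control level. With array weights 3 RALFL falls were called, and in the fit of the 4 sfr3 arrays 2 were. Of 12 tested TBL genes, a family that acetylates wall polymers, 4 fell and 1 rose, against 16.4% and 14.9%. The one that rose, TBL26, gave 192 and 183 in the cold, against 38.0 and 27.98 warm (log2 2.44, adjusted p = 2.42e-04), whereas TBL45 fell to 169 and 169 against 360.0 and 358 (log2 -1.08, adjusted p = 0.00185). These families, and the GH9 endoglucanases with 2 higher and 1 lower of 5, were counted after the values were seen. With array weights 1 of the 4 TBL falls was called, and on leaving out 1 sfr3 array the 5 TBL calls became 2 to 7.

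**Figure D3:**
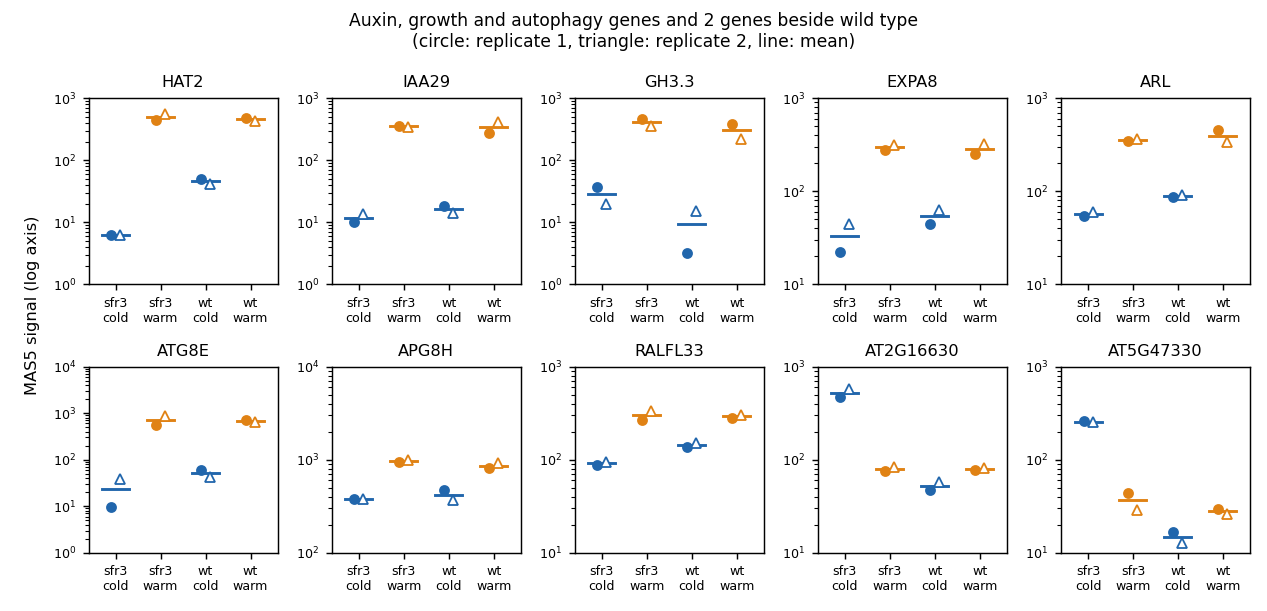
MAS5 signal (log axis) of 10 genes on each of the 8 arrays, with groups on the horizontal axis, circles for replicate 1, triangles for replicate 2 and lines for the mean of 2. The first 8 genes were lower in cold than in warm sfr3 plants without overlap, and AT2G16630 and AT5G47330 were higher in cold sfr3 plants than on every other array.

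Genes of flavonoid synthesis were higher where they were called. UGT78D2, a flavonoid 3-O-glucosyltransferase, read 218 and 199.9 in the cold, against 51.5 and 57.6 warm (log2 1.90, SE 0.21, adjusted p = 3.18e-04). UF3GT, which adds xylose to anthocyanins, read 65.8 and 39.1 against 14.9966 and 15.5 (log2 1.61, adjusted p = 0.0300). The glycosyltransferase gene AT1G06000 was below background without cold, with 72.5 and 89.1 in the cold, against 2.30 and 5.96 warm, at least 9.28-fold higher (adjusted p = 0.00196). Both cold arrays were above both warm arrays for each. CHIL, a chalcone isomerase-like protein named after its values were seen, read 72.3 and 124 against 17.7 and 16.2 (log2 2.34, adjusted p = 0.0259). DFR, dihydroflavonol reductase (log2 0.29, adjusted p = 0.582), and UGT78D1 (0.31, adjusted p = 0.655) did not pass. For UGT78D1 replicate 1 (-0.50) and replicate 2 (1.11) changed in opposite directions. The list had 3 genes higher and 0 lower of 5, against 14.9% and 16.4% of all probe sets. The calls of UF3GT and CHIL were lost with array weights and on leaving out either warm array.

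Several nuclear genes of chloroplast assembly and protection were higher. The 3 tested chaperonin 60 genes, which fold Rubisco and other stromal proteins, all rose, against 14.9% of all probe sets. Cpn60beta2 gave 273 and 353 in the cold, against 109 and 126 warm (log2 1.39, adjusted p = 0.00239), with Cpn60beta3 at log2 1.36 (adjusted p = 0.0331) and Cpn60beta4 at 1.31 (adjusted p = 0.00583). SAPX, the stromal ascorbate peroxidase, gave 437 and 487 in the cold, against 101 and 102 warm (log2 2.16, adjusted p = 5.00e-05). TAPX, its thylakoid counterpart, moved the other way, with 267 and 187 against 469 and 465 (log2 -1.06, adjusted p = 0.00532). The groups were clearly apart for both. VTC4, an enzyme of ascorbate synthesis, gave 374 and 418 in the cold, against 110.0 and 95.6 warm (log2 1.92, adjusted p = 1.18e-04). GR, a glutathione reductase, gave 1157 and 941 against 381 and 419 (log2 1.38, adjusted p = 8.34e-04). NTRC, a plastid thioredoxin reductase, and CHLI2, a magnesium chelatase subunit, were higher, NTRC by log2 1.14 (adjusted p = 0.00133) and CHLI2 by 1.21 (adjusted p = 0.00135). CRR42, needed for the chloroplast NDH complex, rose as well (log2 1.61, adjusted p = 7.81e-04). All of these were named after their values were seen, and the calls of Cpn60beta3 and Cpn60beta4 were lost with array weights, that of Cpn60beta3 also on leaving out either warm array.

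Most tested photosynthesis genes of the nucleus did not pass, and plastid-encoded genes read differently on the 2 cold arrays. LHCB4.1 gave 7702 and 9165 in the cold, against 7009.8 and 7347 warm (log2 0.23, adjusted p = 0.499), and RCA, Rubisco activase, 8302 and 7433 against 6146 and 6987 (log2 0.26, adjusted p = 0.429). LHCB4.2 fell to 2687 and 4752 in the cold, against 6616 and 6865 warm (log2 -0.91, adjusted p = 0.0384), but was called in 5 of 18 alternative settings, and not without cold replicate 1. Of the 4 tested photosynthesis genes 1 fell and none rose, against 16.4% and 14.9% of all probe sets. Among 69 tested genes of the plastid chromosome 8 rose and 2 fell, against 14.9% and 16.4% of all probe sets. The 10 calls became 5 without warm replicate 1, 25 without warm replicate 2, 35 without cold replicate 2, 5 with array weights and 1 in the fit of the 4 sfr3 arrays. Their median change was 0.85 on replicate 1 and 0.27 on replicate 2. The large subunit gene rbcL was among those that rose on both arrays, by 1.80 and 1.52 (adjusted p = 3.17e-04). By contrast petN, of the cytochrome b6f complex, changed by 2.76 and 0.30 and did not pass (adjusted p = 0.0905). The part of the raised background of replicate 1 in these values was not tested.

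Lipid and cuticle genes had few named probe sets. AT5G61590, the wax repressor DEWAX, fell to 260.1 and 273 in cold sfr3 plants, against 1585 and 2031 in warm ones (log2 -2.74, SE 0.21, adjusted p = 4.47e-05). SHN3, an activator of cutin synthesis, was not above background in warm plants (5.66 and 2.54) and read 32.0 and 41.4 in the cold (adjusted p = 0.0142). AT5G33370, a cutin synthase gene, read 88.3 and 81.0 in the cold, against 19.6 and 34.8 warm (log2 1.61, adjusted p = 0.00738). The cold replicates were close for all 3 genes, although SHN3 on replicate 1 lay under the dark control level of that array and only replicate 2 gives it a cold level. WSD1, a wax ester synthase, gave 39.8 and 123 in the cold, against 20.9 and 10.5 warm. It did not pass (log2 2.09, adjusted p = 0.145), although both cold arrays were higher. FATB, the plastid thioesterase that releases saturated fatty acids, fell to 224 and 258 in the cold, against 496 and 496 warm (log2 -1.04, adjusted p = 0.00200). AT2G22230, of the plastid fatty acid synthesis list, rose (log2 0.77, adjusted p = 0.0400) and was called in 8 of 18 alternative settings. AT4G12490, a lipid transfer protein family gene, was among the largest rises, at 1250.4 and 2041 in the cold, against 99.4 and 59.6 warm (log2 4.34, adjusted p = 2.19e-05). AAPT2, a phospholipid-forming aminoalcohol phosphotransferase, rose to 291 and 228 against 99.7 and 91.2 (log2 1.41, adjusted p = 0.00167). The calls of SHN3 and AT5G33370 were lost with array weights, the first also without warm replicate 2 and the other without warm replicate 1, and SHN3 was called in 11 of 17 alternative settings.

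Gene families of conjugation and secretion moved unequally. UGT72E1, which glucosylates lignin precursors, had the largest fall among UDP-glycosyltransferases, to 26.5 and 42.2 in the cold, against 490.0 and 449 warm (log2 -3.72, adjusted p = 2.78e-05). UGT85A4 fell to 16.1 and 22.7 against 147 and 98.9 (log2 -2.52, adjusted p = 0.00121), and UGT76C1, a cytokinin glucosyltransferase, to 8.15 and 26.0 against 66.0 and 61.4 (log2 -1.95, adjusted p = 0.0205). The replicate 1 values of all 3 lay under the dark control level of that array. UGT76C1 changed by -2.67 on replicate 1 and -1.22 on replicate 2. In this family 5 of 20 tested members rose and 4 fell, against 14.9% and 16.4% of all probe sets. The 9 calls became 4 with array weights, 4 in the fit of the 4 sfr3 arrays and 4 to 13 on leaving out 1 sfr3 array. GSTU20, a glutathione transferase, rose to 678 and 1122 in the cold, against 230.5 and 194 warm (log2 2.03, adjusted p = 0.00133), and GSTU27 to 319 and 136 against 63.9 and 70.9 (log2 1.598, adjusted p = 0.0115). GSTU27 changed by 2.21 on replicate 1 and 0.99 on replicate 2. These were the 2 calls among 5 tested glutathione transferases, and 1 to 4 were made on leaving out 1 sfr3 array. Serine carboxypeptidase-like genes, counted after the values were seen, had 6 higher and none lower of 15 (14.9% of all probe sets were higher), and 4 to 11 calls on leaving out 1 sfr3 array, led by scpl35 at 783 and 801 in the cold, against 144 and 107 warm (log2 2.65, adjusted p = 1.70e-04) and scpl46 at 272 and 258 against 45.9975 and 48.8 (log2 2.43, adjusted p = 5.56e-05). The BGLU beta-glucosidases had 2 higher and 1 lower of 8, tetraspanins 1 and 2 of 5, and the VHA subunits of the vacuolar proton pump 2 and 0 of 3, against 14.9% higher and 16.4% lower over all probe sets. On leaving out 1 sfr3 array the calls numbered 1 to 5 for BGLU, 1 to 5 for tetraspanins and 0 to 2 for VHA genes, and with array weights 2, 2 and 0. The calls of UGT76C1 and GSTU27 were lost on leaving out either warm array. No call was made among the 1 aquaporin (AQI, log2 0.38, adjusted p = 0.125), the 2 listed glutaredoxins, which leave out AT3G62950 (GRXC1 the closer, log2 -0.19, adjusted p = 0.446) and the 2 DEAD-box helicases (PRH75 the closer, log2 -0.47, adjusted p = 0.102) tested.

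**Figure D4:**
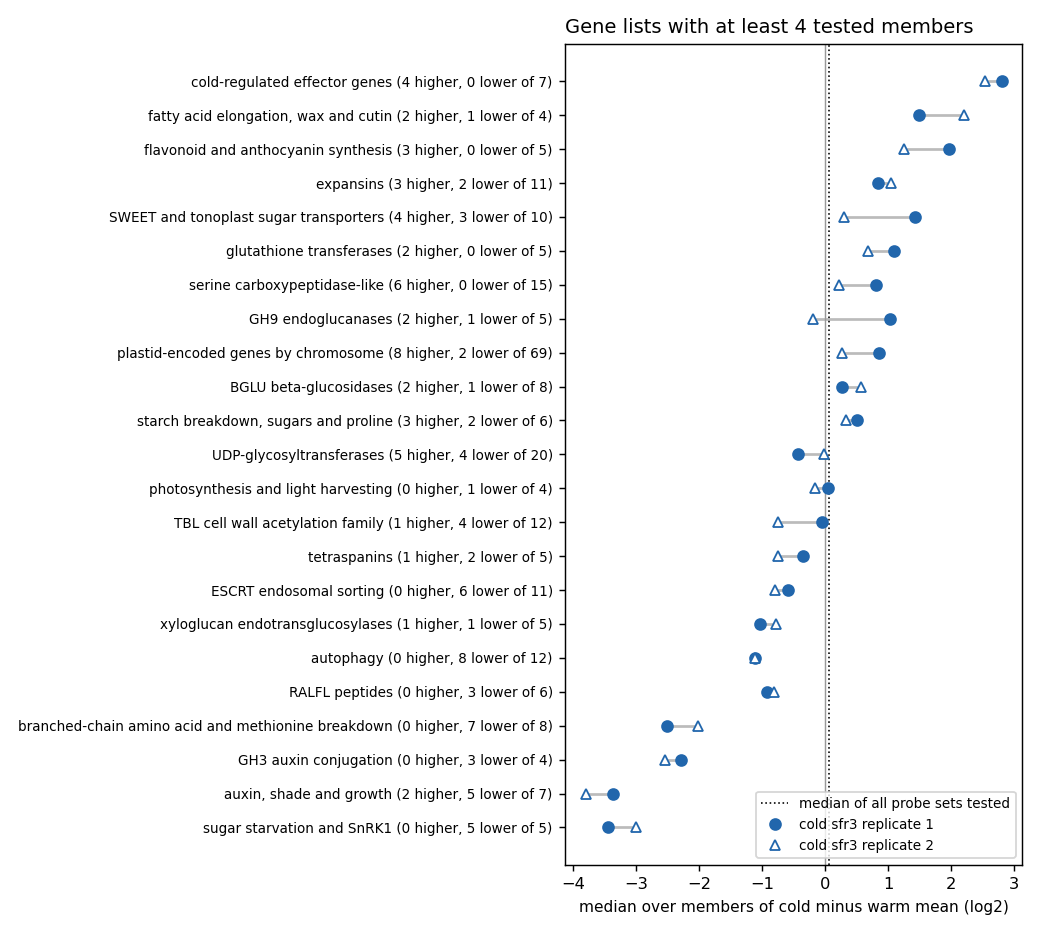
Median change from the warm sfr3 mean (log2 of MAS5 signal) over the tested members of each of the 23 gene lists with at least 4 of them, for cold sfr3 replicate 1 (circles) and replicate 2 (triangles), with the number called higher and lower beside each list. The starvation, auxin, GH3 and amino acid breakdown lists lie below -2 on both arrays. The starvation and amino acid breakdown lists share members, as do the auxin and GH3 lists. The GH9 and photosynthesis lists have medians of opposite sign on the 2 arrays, those of photosynthesis close together (0.04 on replicate 1 and -0.16 on replicate 2).

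Defence genes moved in both directions. AT5G03350, a legume lectin family gene, had one of the largest rises, to 1908 and 3366 in the cold, against 92.0 and 92.1 warm (log2 4.75, SE 0.30, adjusted p = 1.60e-05). WRKY53, a transcription factor of senescence and defence, fell to 9.11 and 48.1 against 111 and 92.2 (log2 -2.12, adjusted p = 0.0225), with the replicate 1 value under the dark control level, and changed by -1.04 without that array. PDF1.2, a jasmonate-induced defensin, gave 20.4 and 51.8 in the cold, against 408 and 43.4 warm and did not pass (log2 -1.97, adjusted p = 0.0969). Its warm replicates differed more from each other than the group means did. The call of WRKY53 was lost on leaving out either warm array.

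The remaining genes among the 15 largest rises and 15 largest falls, ranked by the weaker of the 2 cold arrays, carry few functional names. AT3G22240 rose to 6222 and 5925 in the cold, against 291 and 248 warm (log2 4.49, adjusted p = 1.50e-05), and the GDSL lipase gene AT2G04570 to 572 and 491 against 25.6 and 33.9 (log2 4.07, adjusted p = 3.50e-05). Another 7 genes were not above background in warm plants. Their bounds, with the cold signals taken as they are, were 13.0-fold for AT1G07050, 8.33 for AT2G16890, 8.32 for the DnaJ-domain gene AT1G71000, 7.48 for AT2G23910, 7.37 for AT1G76960, 7.18 for AT5G17700 and 6.89 for AT1G17665 (adjusted p = 1.35e-04 to 0.00867). With a signal floor at 35.4 on every array the log2 change was 1.67 for AT1G07050, 1.02 for AT1G71000, 0.87 for AT2G23910 and 0.75 for AT1G17665. The call of AT1G17665 was then lost (adjusted p = 0.112). Among the falls, AT5G19120, an aspartyl protease family gene, read 5.59 and 19.3 in the cold, against 1371 and 1241 warm (log2 -6.66, adjusted p = 1.45e-05). AT2G20670 read 43.6 and 4.88 against 1283 and 1484 (log2 -6.27, adjusted p = 3.22e-04), and the glutaredoxin gene AT3G62950 read 4.25 and 13.2 against 327 and 543 (log2 -5.42, adjusted p = 4.00e-05). One cold value of each of these 3 genes lay under the dark control level of its array, on replicate 1 for AT5G19120 and AT3G62950 and on replicate 2 for AT2G20670, so the sizes of these falls are not fixed by the data. AT1G62480 (56.0 and 84.2 in the cold, against 2117 and 1939 warm), AT3G10020 (59.4 and 77.6 against 1399 and 1189) and AT2G24550 (11.1 and 8.73 against 347 and 409, at least 20.7-fold lower) had closer cold replicates. AT3G15630, AT2G32150 and AT1G62510 changed by -4.60, -4.61 and -4.73 on the log2 scale. AT4G32030 was not above background in the cold and at least 9.92-fold lower, and AT1G10020 likewise at least 6.06-fold lower. Of these 30 genes 27 were also called with array weights, the exceptions being AT2G23910, AT1G76960 and HYH. The ranking required a large change on each cold array, so a fit without cold replicate 1 is no separate support for these genes. The call of AT1G76960 was also lost without warm replicate 2, and the fit of the 4 sfr3 arrays alone did not call AT2G16890, AT2G23910, AT1G76960, AT5G17700 and AT1G17665.

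The called genes whose cold arrays differed most were all much lower on replicate 1. SGT1A, a co-chaperone of immune receptors, read 10.8 and 117 in the cold, against 269 and 241 warm, a change of -4.30 on replicate 1 and -1.11 on replicate 2 (adjusted p = 0.0273). RALFL22 changed by -3.86 and -0.78, AT1G66890 by -4.34 and -1.13, AT1G21780 by -4.49 and -1.42, and AT5G23380 by -4.64 and -1.598. Each replicate 1 value lay under the dark control level of that array. Without replicate 1 the change of all 5 was the smaller fall on replicate 2. Each call was lost in a fit of the 4 sfr3 arrays and on leaving out either warm array.

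Against wild type, the cold response of sfr3 differed by test on few probe sets. The difference between the 2 cold responses was called on 5 (0.0366%) of 13648, where 803 had an unadjusted p under 0.05. The cold response of wild type itself was called on 3594 (26.3%), and 29 of the 30 genes with the largest changes in sfr3 were called in the same direction in wild type. COR15A changed by 3.75 in sfr3 and 3.37 in wild type (difference 0.38, SE 0.39, adjusted p = 0.775). MCCA changed by -4.36 in sfr3 and -4.39 in wild type (difference 0.03, SE 0.31, adjusted p = 0.983), and AT5G61590, the wax repressor, by -2.74 and -2.38 (difference -0.36, SE 0.30, adjusted p = 0.749). These differences were not called, which does not show that the responses are alike. Between sfr3 and wild type, HAT2 was the single one of the 76 named genes with a called difference. It fell in both genotypes but further in sfr3, to 6.31 and 6.15 in cold sfr3 against 451 and 552 in warm sfr3, and to 50.6 and 41.7 in cold wild type against 485 and 428 in warm wild type (difference of log2 changes -2.65, SE 0.32, adjusted p = 0.0416). Since the cold sfr3 values were not above background, the data do not fix the size of this difference. AT2G16630, an Ole e 1 family gene, rose in sfr3 (log2 2.68, adjusted p = 4.95e-05) and did not pass in wild type (-0.59, adjusted p = 0.0751), with 475 and 572 in cold sfr3 against 75.7 and 82.9 in warm sfr3, and 46.9 and 57.2 in cold wild type against 76.5 and 81.1 in warm wild type (difference 3.27, SE 0.30, adjusted p = 0.0112). Both cold sfr3 arrays were more than 5 times any other array. The other 3 probe sets have no gene paired here. 247717_at gave 2387 and 3205 in cold sfr3 against 309 and 365 in warm sfr3, and 233 and 175 in cold wild type against 344 and 423 in warm wild type (difference 3.95, adjusted p = 0.00683). The others were 264146_at (difference 2.64, adjusted p = 0.0310) and 247718_at (4.80, adjusted p = 0.0310). AT5G47330, of the palmitoyl thioesterase family, had a pattern like that of AT2G16630 but missed the threshold for the difference, with 258 and 255 in cold sfr3 against 43.9 and 28.9 in warm sfr3, and 16.6 and 12.8 in cold wild type against 29.5 and 26.3 in warm wild type (difference 3.61, adjusted p = 0.0573). The GDSL gene AT2G04570 also missed it (difference 3.08, adjusted p = 0.0667). AT2G16630 and AT5G47330 were named after their values were seen. The probe sets without a gene name were chosen by their call. Without cold sfr3 replicate 1 the number of called differences was 16, without cold sfr3 replicate 2 it was 3802, and without any 1 of the other 6 arrays it was 0 to 2.

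**Figure D5:**
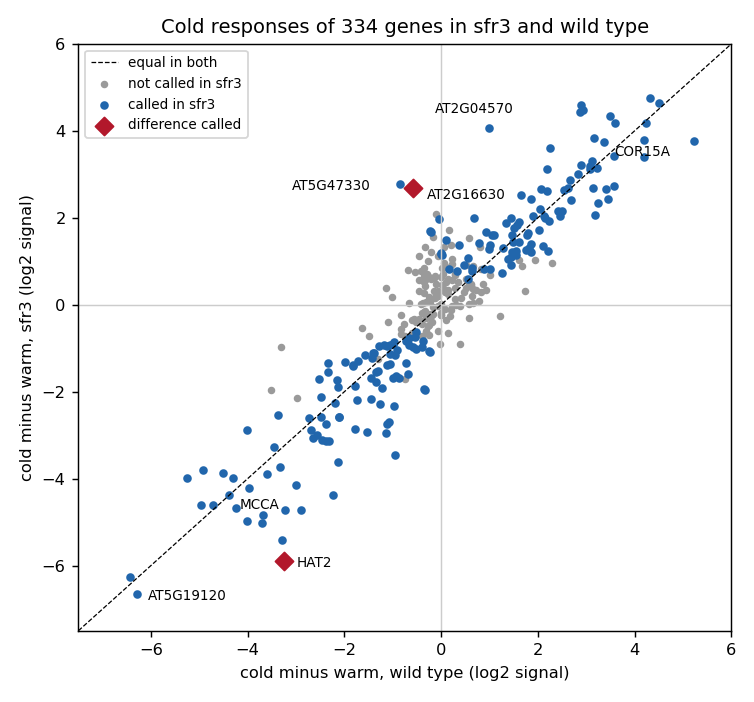
Cold minus warm change (log2 of MAS5 signal) in sfr3 (vertical axis) and wild type (horizontal axis) for the 334 genes of the lists and the named genes, with the dashed line of equal change. HAT2 and AT2G16630 (diamonds) are the plotted genes whose difference was called.

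Markers of other tissues were few. The 3 tested leaf markers, RCA, LHCB4.1 and LHCB4.2, were bright in every sfr3 sample. PYK10, a beta-glucosidase of roots and ER bodies, fell to 112 and 40.01 in the cold, against 202 and 199 warm (log2 -1.55, adjusted p = 0.0218), with the fall on replicate 2 (-2.27) larger than on replicate 1 (-0.83). Its call was lost on leaving out either warm array. PYK10 was the single tested root marker of 3 with a named probe set, the 1 flower marker with a named probe set was below the signal filter, and no member of the seed marker or abscisic acid list was paired. The part of a change in collected tissue in the results was not tested.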

How the data were processed

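Aerial tissue of sfr3 and Col-0 plants, cold-treated or warm-grown, was profiled on 8 Affymetrix ATH1 arrays, 2 per group. The authors deposited MAS5 signal intensities on a linear scale for 22810 probe sets, and MAS5 and GCOS are named in the submitters' processing notes without versions. The 2% trimmed mean of each array was near 100, so the arrays had been scaled to a common level. Groups were taken from the sample titles. The 64 control probe sets were left out and 2.17, the 10th percentile of all intensities, was added before taking log2. The size of the change of dim genes depends on this value. AT1G71000 changed by log2 4.65 with it, by 2.39 with 16 added and by 1.02 with a signal floor at 35.4. All 8 arrays entered one fit in limma 3.58.1 (R 4.3.3), limited to the brightest 60% of probe sets by mean, with variances moderated along an intensity trend, and p-values were adjusted by Benjamini-Hochberg over the 13648 probe sets tested. Background was taken as the 95th percentile of 27 dark control probe sets on each array. Where both arrays of a group lay under it, the data do not fix the size of a change. Such changes were mostly given as bounds. The values of AT1G71000 above, those with a signal floor and the genotype difference of HAT2 are fitted values. The number of arrays limits the precision.

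Of 22746 probe sets 13513 were paired with 1 gene in the platform annotation, 503 with several and 8730 with none, and only the first were named. Named genes were the 15 called rises and 15 called falls largest by the smaller of the 2 cold arrays' changes, up to 4 called members of each list (or the one with the smallest p), and the 5 called genes whose cold arrays differed most, 76 in all. Of the 45 lists, 13 were added after the values were seen, and 9 held no named probe set. The members and lists were chosen with earlier results of these data known. Another pseudocount, filter, normalization, variance model, array weights, a replicate block, each array left out, other thresholds and a signal floor at 35.4, added after seeing the data, were tried. A search of promoters for motifs was planned and not run because no promoter sequences were at hand.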

Additional observations from a re-analysis of the deposited data

Results flagged for a closer look

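The cold response differed between sfr3 and wild type, by the interaction term of the limma fit, on 5 probe sets. The differences of log2 changes, sfr3 minus wild type, were 3.95 for 247717_at (SE 0.32, adjusted p = 0.00683), 3.27 for AT2G16630 (SE 0.30, adjusted p = 0.0112), 2.64 for 264146_at (SE 0.30, adjusted p = 0.0310), 4.80 for 247718_at (SE 0.54, adjusted p = 0.0310) and -2.65 for HAT2 (SE 0.32, adjusted p = 0.0416). On all 5 both cold sfr3 arrays lay outside the range of both warm sfr3 arrays. Genotype and collected tissue cannot be told apart in these differences. The cold sfr3 values of HAT2 were not above background, so the data do not fix the size of its difference.

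The hybridisation control probe sets, which report RNA added to the sample after extraction and not plant RNA, had on cold sfr3 replicate 1 a median 7.64 times that of the other arrays, whose own ratios ran from 0.568 to 1.31. The part of this in any gene's value on that array was not tested.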

How the results depend on the processing

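No called direction turned among 193 called genes of the lists and named genes in the settings that change the estimate (pseudocount, normalization, signal floor, an sfr3 array left out). On every called probe set both cold arrays lay on the same side of both warm arrays. A pseudocount, a signal floor or a left-out sfr3 array could therefore not turn a direction, and only the normalization could. Over 1502 pairs of a named gene and a setting, 1346 kept their side of the threshold, 152 lost the call and 4 gained it. The number of calls moved more. Against 4261 calls (2028 higher, 2233 lower), array weights gave 2236 (879 and 1357, with 2235 outside the warm range on both cold arrays), the fit of the 4 sfr3 arrays 1867 (794 and 1073), centring on the median 3374 (1043 and 2331) and an adjusted p under 0.01 gave 2125 (920 and 1205). The other settings with all arrays, among them quantile normalization, no filter, another pseudocount and the signal floor, gave 3047 to 4408 calls. Median centring moved the median of all probe sets tested by -0.24, and it turned the median of the 3 leaf markers to -0.02 and quantile normalization to -0.43, against 0.23. Leaving out 1 array gave 2027 to 7981 calls, with 929 to 4058 higher and 1098 to 3923 lower. The fewest came without a warm sfr3 array (2027 and 2180), and without cold sfr3 replicate 2 there were 7981. The genotype difference, called on 5 probe sets, gave 0 on median centring and without an intensity trend, 3 with quantile normalization, 7 with array weights, 2 with the signal floor, 1 at an adjusted p under 0.01, and 0 to 3802 with 1 array left out. Leaving out a cold sfr3 array takes the difference between the cold sfr3 replicates out of the spread. That difference had a median of 0.55 on the log2 scale, against 0.18 to 0.23 in the other groups. The cause of these shifts was not tested.

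With the replicate number as a block, 4026 probe sets were called (1911 higher, 2115 lower) and 4 for the genotype difference. Replicate numbers did not pair the arrays: the deviations of same-numbered cold and warm sfr3 arrays correlated at -0.06, and those of all 6 pairs of groups at -0.09 to 0.05. The motif search was not run, and a fit of the 4 sfr3 arrays cannot give the genotype difference. Signal over background limits falls: cold sfr3 replicate 1 was above its dark level on 2023 of 2028 called rises but 1639 of 2233 called falls.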
